A study of Mus musculus with 40 samples.

Results

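Glycam1, Madcam1, Cxcl13, Ccl19, Lta, Ltb, Cxcr5, Ccr7 and Cr2 are genes used by lymph node tissue, and their expression was followed over a feeding time course in subcutaneous stromal vascular cells of mice. They are 9 of the 29411 gene symbols of the array, measured by 11 of its 40628 probes. The genes were picked from measured values of the same arrays, because they were high at Week3 and on the high-fat array of Week15. The levels at those time points are therefore described without a test, and the diets were compared at the other time points, apart from 1 alternative fit over all time points.

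Lymph nodes hold B cells and T cells in separate zones. Lymphocytes enter from the blood through high endothelial venules, whose cells carry glycoproteins that lymphocytes bind, and chemokines made by stromal cells then draw them to their zone. Lymphotoxins on lymphocytes keep that stroma active through the lymphotoxin beta receptor and NF-κB. The subcutaneous fat pads of mice contain lymph nodes, and the labels do not say whether these were removed before the cells were prepared.

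The mice were C57BL/6J, weaned at 3 to 4 weeks of age and given 1 of 5 diets. LFC was the low-fat control diet with 10% of calories from fat, and HFC was a high-fat, high-sucrose diet with 60%. HF5, HF20 and HF75 were HFC with 5, 20 or 75 µg of the botanical formulation Kal-1. Each array carried RNA of 1 diet at 1 time point, from Day1, Day6, Day10 and Day14 and then from Week0 to Week18 in steps of 3 weeks, where weeks were counted after Day14. Of 40 arrays, 38 had labels that fit together. LFC and HFC have 11 arrays each, HF5 has 6, and HF20 and HF75 have 5 each, the Kal-1 diets beginning at Week3. With 1 array for each diet and time point there are no replicates within a point, and how many mice an array stands for is not given. The series description speaks of 3 biological replicates, and the labels of 30 animals in each diet group. By the labels the tissue is subcutaneous stromal vascular cells, which are what remains of digested fat once adipocytes are taken out, while the series description speaks of infiltrating macrophages.

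A level is the log2 of the background-subtracted intensity minus the log2 of the 75th percentile of its array, so that 0 is the level of a probe brighter than 75% of the others. A value not well above background, by the scanner software, was raised to the lowest level that was if it lay below that level. Any value not well above background is only an upper bound. The 75th percentile intensity ranged from 8.12 to 2171 over the labelled arrays (median 798), and 17.2% to 87.2% of the probes were well above background.

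Some arrays stood apart from the rest. On the LFC Week3 array the 75th percentile was 8.12 and the share of probes above background was the lowest, 17.2%, against at least 53.4% on the others. Only 4 of the 9 genes could be read there, and values below 0.36 could not be measured. The LFC Day14 array had 9104 outlier spots, among them those of Glycam1 and Cxcr5. On the LFC Week18 array the fibroblast genes had a median level of -6.02 with 2 of 7 above background, the endothelial genes -5.48 with 3 of 6 and the adipocyte genes -6.33 with 3 of 8, while the neutrophil genes stood at 6.49. On the HF5 Week3 array the endothelial genes were at -1.33, compared with 2.28 to 3.52 on the 3 other high-fat arrays of Week3. At Week9 the LFC, HFC, HF5 and HF20 arrays, whose titles carry another tissue code, had adipocyte genes at 5.58, 5.25, 5.30 and 5.36, against 2.96 on the HF75 array of Week9.

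Glycam1 encodes a sialomucin of high endothelial venules, which takes part in the homing of lymphocytes. At Week3 its level was 6.85 on LFC, 5.25 on HFC, 1.76 on HF5, 5.21 on HF20 and 6.06 on HF75. At Week15 it was 3.68 on HFC, -2.40 on LFC, -0.61 on HF5 and -4.20 on HF75, and on HF20 it was not well above background. These levels show Glycam1 bright on every Week3 array and on 1 of the 5 arrays of Week15. At the time points outside Week3 and HFC Week15 it was well above background on 20 of 32 arrays. Over these 32 its median was -2.96, its highest level 5.72 and its lowest value, on LFC Week12, a bound of -7.82. It was also high on LFC Day1 (5.72), HFC Day14 (5.38), LFC Day10 (5.22), HF75 Week12 (4.08), HF75 Week9 (3.93) and HF5 Week12 (3.80). So 2 of the 5 Week3 levels, those of LFC and HF75, were above any level at the other times and 3 were not, and the 2 HFC arrays of Day14 and Week0, which stand for the same time, gave 5.38 and 2.27. At Week6 Glycam1 was above background on HFC alone (-6.03).

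Madcam1 encodes the addressin to which the integrin of gut-homing lymphocytes binds. Its levels at Week3 were -4.25 on HFC, -3.77 on HF20 and -4.29 on HF75, and on LFC and HF5 it was not well above background. On HFC Week15 it was -4.96, below the -4.14 of LFC, the -4.73 of HF5 and the -3.90 of HF20 and above the -5.32 of HF75 at that time. Madcam1 was dim throughout and did not share the pattern for which the genes were picked. Its highest levels that could be measured were those of the LFC Day14 array (-1.24), HFC Day6 (-1.78) and LFC Day1 (-1.99).

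Cxcl13 is the chemokine that draws B cells into follicles. At Week3 its level was 1.85 on LFC, 1.14 on HFC, -0.46 on HF5, 0.91 on HF20 and 0.56 on HF75, and on HFC Week15 it was 2.11. The other Week15 arrays had 0.77 on LFC, 1.16 on HF5, -0.65 on HF20 and 1.07 on HF75. Cxcl13 was thus highest on HFC within Week15, but by a small step, and the Week3 levels overlapped those of Week12 (-0.06 to 1.60) and Week15. Over the 32 arrays of the other time points its median was -0.35 and its highest level 2.51, on LFC Day1. Its lowest value, -6.48 on LFC Week18, is a bound.

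Ccl19 is a chemokine of the T cell zone and guides T cells and dendritic cells that carry Ccr7. Its level at Week3 was 6.05 on LFC, 3.17 on HFC, 1.03 on HF5, 3.44 on HF20 and 3.97 on HF75. At Week15 it was 3.72 on HFC, 3.23 on LFC, 3.26 on HF5, 0.10 on HF20 and 3.94 on HF75. Ccl19 was bright on almost all arrays and on HFC Week15 it stood among the others, so it too followed the pattern only in part. At Week6, where Glycam1 and Cr2 were mostly below background, Ccl19 was at 4.69 on LFC, 4.09 on HFC, 3.17 on HF5, 2.77 on HF20 and 4.98 on HF75. Its lowest levels were on LFC Week18 (-4.04) and HFC Day1 (-3.88). A second probe for Ccl19 gave 0.42 to 3.58 on the 4 high-fat arrays of Week3, but it may also detect near-identical copies of the gene and its values are uncertain.

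Ltb encodes lymphotoxin beta, the membrane anchor of the lymphotoxin complex. At Week3 its level was 4.86 on LFC, 5.08 on HFC, 5.40 on HF5, 5.21 on HF20 and 4.95 on HF75. At Week15 it was 4.62 on HFC, 0.95 on LFC, 1.20 on HF5, 1.36 on HF20 and 0.12 on HF75. The Week3 arrays were within a narrow band and the HFC array of Week15 was clear of the 4 others. Outside these, Ltb reached 5.67 on LFC Day1, 5.67 on LFC Day10, 5.03 on LFC Week18, 4.86 on HF75 Week9 and 4.82 on HFC Week18. It was well above background on all 38 arrays, with its lowest level on HFC Day1 (-1.83).

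Lta encodes lymphotoxin alpha, the soluble partner in that complex. Its level at Week3 was -0.45 on HFC, 0.21 on HF5, -0.24 on HF20 and -0.16 on HF75. At Week15 it was -0.999 on HFC, -4.80 on LFC, -4.36 on HF5, -5.64 on HF20 and -5.52 on HF75. Lta separated HFC from the other diets of Week15 as Ltb did. Outside Week3 and HFC Week15 its highest level, 1.05, was read on the LFC Day14 array with its many outlier spots, and the next was 0.02 on HF75 Week9.

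Cxcr5 is the receptor for Cxcl13 on B cells and follicular helper T cells. At Week3 its level was 2.31 on HFC, 3.10 on HF5, 1.54 on HF20 and 1.14 on HF75, and at Week15 it was 1.18 on HFC, -2.60 on LFC, -1.99 on HF5, -2.88 on HF20 and -5.17 on HF75. Among the other arrays it was high on LFC Day1 (3.06), HF75 Week9 (3.00), LFC Day10 (2.28), HFC Day14 (2.19), HF5 Week12 (1.87) and HF75 Week12 (1.69). These are largely the arrays on which Glycam1 was high. On LFC Week18, where Glycam1 was not above background, Cxcr5 stood at 1.31.

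Ccr7 is the receptor for Ccl19 and brings T cells and dendritic cells into the node. At Week3 its level was 3.86 on HFC, 5.39 on HF5, 3.28 on HF20 and 3.86 on HF75. At Week15 it was 2.76 on HFC, -0.51 on LFC, -0.66 on HF5, -3.39 on HF20 and -3.81 on HF75. The receptor therefore set HFC apart at Week15 while its ligand Ccl19 did not. The highest level of Ccr7 outside Week3 was 4.94, on HF75 Week9.

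Cr2 encodes a complement receptor of mature B cells and follicular dendritic cells. At Week3 its level was 0.84 on HFC, 0.67 on HF5, 0.68 on HF20 and 0.16 on HF75, and at Week15 it was -0.52 on HFC, -5.74 on LFC, -3.85 on HF5 and -6.30 on HF20, and not well above background on HF75. At the other time points it was well above background on 21 of 32 arrays, with a median of -4.50 and the highest level, 0.92, on HF75 Week9. Cr2 was bright on largely the same arrays as Cxcr5. A second Cr2 probe was dim, with -4.39 to -3.36 on the 4 high-fat arrays of Week3, and was well above background on 23 arrays against 26 for the first. At Week15 it was -4.91 on HFC and -5.00 on HF20, and not well above background on the other diets. Its highest level that could be measured was -0.82, on HFC Day6.

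**Figure D1:**
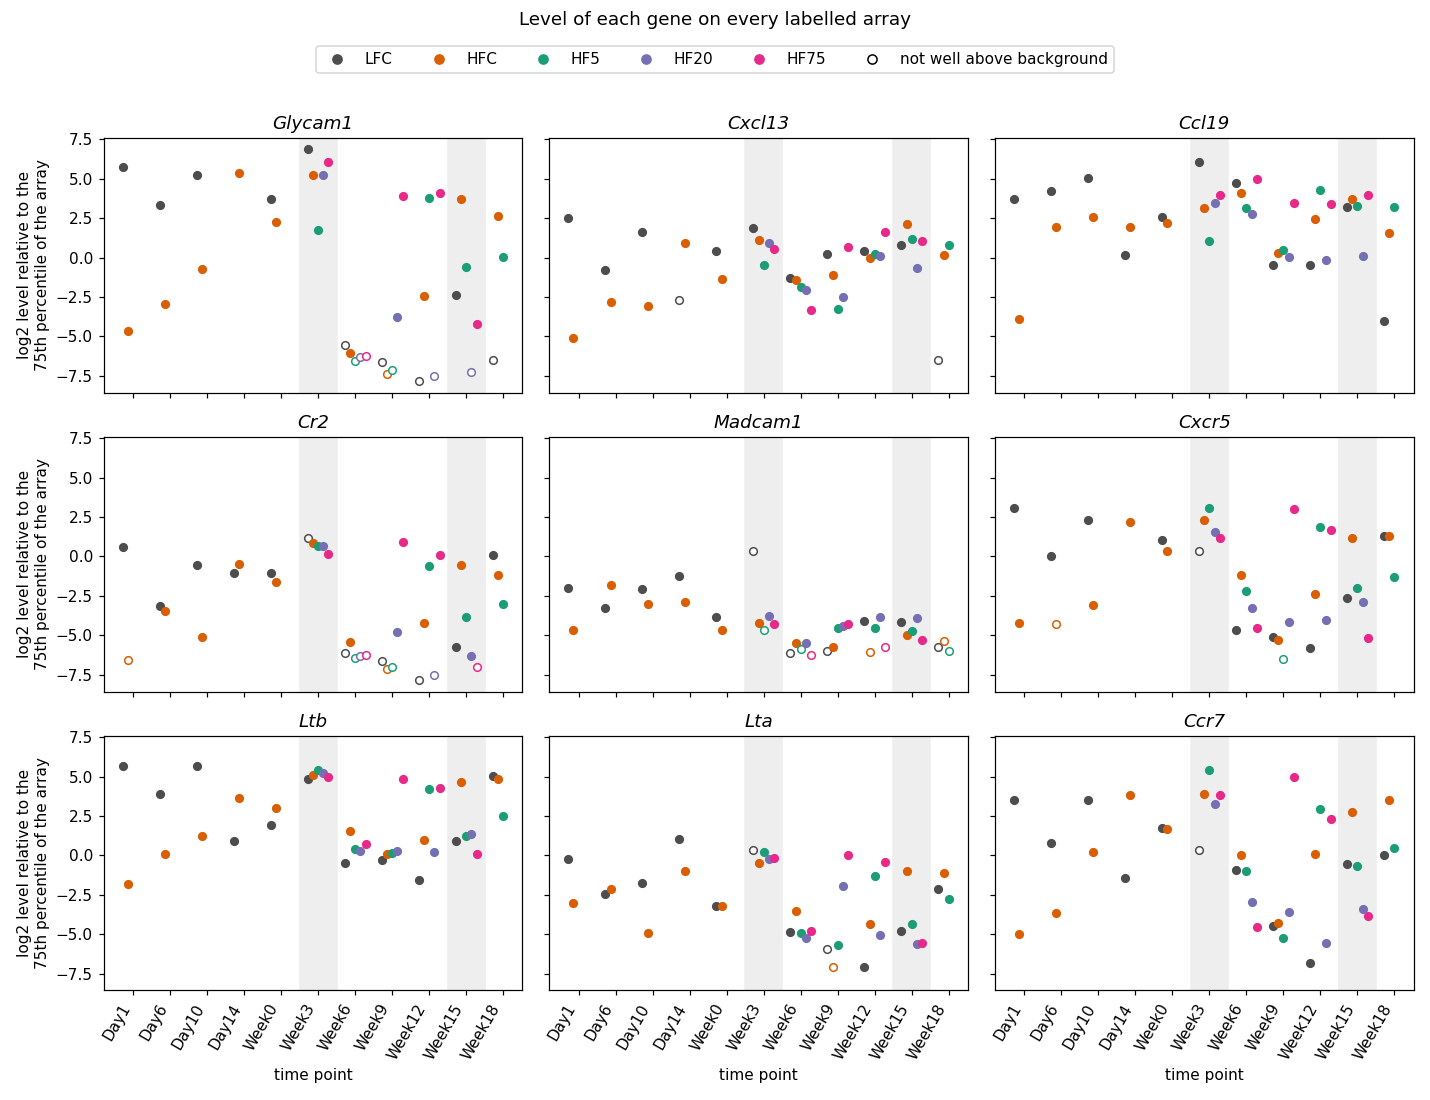
Log2 level, scaled to each array's 75th percentile (y axis), by time point (x axis) for the 9 genes, 1 point for each labelled array, coloured by diet, with hollow points not well above background and the grey bands marking Week3 and Week15, which chose the genes. Glycam1, Cr2, Cxcr5, Ltb, Lta and Ccr7 were high on the 4 high-fat arrays of Week3 and on the HFC array of Week15, whereas Madcam1 and Ccl19 at Week15 were not set apart.

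As a description, the median of each gene over the 4 high-fat Week3 arrays was set against its median over the 32 other arrays. The log2 difference was 8.20 for Glycam1, 5.17 for Cr2, 4.45 for Ccr7, 4.27 for Cxcr5, 4.06 for Ltb and 3.17 for Lta. It was smaller for Cxcl13 (1.09), Ccl19 (0.72) and Madcam1 (0.34). The median over the 9 genes was 4.06. For HFC Week15 against the median of the 4 other Week15 arrays the differences were 6.98 for Glycam1, 5.50 for Cr2, 4.79 for Ccr7, 4.16 for Lta, 3.92 for Cxcr5 and 3.55 for Ltb. For Cxcl13, Ccl19 and Madcam1 they were 1.19, 0.47 and -0.52, and the median over the 9 genes was 3.92. Against single arrays, Glycam1 on HFC Week15 was 68.0-fold the level of LFC, 19.6-fold that of HF5, 236-fold that of HF75 and at least 1990-fold that of HF20, where it was not well above background. The same 6 genes thus led both descriptions, and with lone arrays none of these differences has a replicate error.

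How closely the 9 genes moved together was described by the correlation of each with the mean standardised level of the 8 others, over 36 arrays without LFC Week3 and LFC Day14. Pearson's r was 0.94 for Glycam1, 0.91 for Ccr7, 0.90 for Cxcr5, 0.89 for Cr2, 0.88 for Ltb and 0.82 for Lta. It was 0.51 for Cxcl13, 0.41 for Ccl19 and 0.32 for Madcam1. Between single genes, r was 0.94 for Cxcr5 with Ccr7 and 0.94 for Cxcr5 with Cr2, and 0.09 for Ccl19 with Madcam1. The arrays share mice of 1 experiment, scan days and slides, and these values are descriptions. The 36 arrays include those whose levels picked the genes, which builds in part of the likeness. Dim genes raised to the same level add to it, as Glycam1 and Cr2, both at -7.82 on LFC Week12. How much they add was not tested. Over the 31 arrays without Week3 and HFC Week15, a choice made after seeing the data, r was 0.93 for Glycam1, 0.90 for Ccr7, 0.90 for Cxcr5, 0.87 for Cr2, 0.85 for Ltb, 0.78 for Lta, 0.45 for Cxcl13, 0.40 for Ccl19 and 0.33 for Madcam1. With or without those arrays, r was higher for the receptors, the lymphotoxins and Glycam1 than for the chemokines and Madcam1.

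Among 23461 genes measured well enough for the comparison, the most similar to the mean of the 9 were Fcer2a (r = 0.95), LOC100048841 (0.95), Slamf6 (0.94), H2-Oa (0.94), Icos (0.94), Faim3 (0.94), Il4i1 (0.94), A430093F15Rik (0.93), Gpr18 (0.93) and Bfsp2 (0.93), over the same 36 arrays, and over the 31 arrays r was between 0.92 and 0.95 for these genes. Fcer2a is a low-affinity IgE receptor of B cells, Slamf6 and Icos are surface receptors of lymphocytes, and H2-Oa belongs to an antigen-loading complex of B cells. Fcer2a itself ranged from -7.82, the lowest level that could be measured on LFC Week12, to 1.14.

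The markers of other cell types moved on the same arrays. The 10 B cell genes were all above background on the 4 high-fat arrays of Week3, with median levels of 1.61 on HFC, 1.70 on HF5, 1.08 on HF20 and 1.06 on HF75. Their summed intensity, in units of the 75th percentile of the array, was 74.3, 56.4, 57.3 and 54.1 in that order, with Ms4a1 or Cd79b as the brightest gene. At Week15 the sum was 26.1 on HFC and 1.49 on LFC, 1.86 on HF5, 1.79 on HF20 and 0.492 on HF75, where Cd79a, Pax5, Blk, Fcer2a and Fcrla were not above background. B cell genes were therefore brighter on HFC than on the other arrays of Week15, as 7 of the 9 genes were, all but Ccl19 and Madcam1. The 12 T cell genes gave summed intensities of 30.5 on HFC, 96.8 on HF5, 25.5 on HF20 and 39.2 on HF75 at Week3, with Cd3d or Cd5 the brightest. At Week15 they gave 28.6 on HFC, 4.30 on LFC, 3.24 on HF5, 2.11 on HF20 and 1.34 on HF75. T cell genes separated the same arrays as the B cell genes did. In bulk samples, more cells of a type and more RNA per cell cannot be told apart, and the part of these cells in the levels of the 9 genes was not tested.

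Markers of high endothelial venules were mixed. Of 5 measured genes, all were above background on HFC, HF20 and HF75 of Week3 and 4 on HF5, where Chst4 was not, and the list had a summed intensity of 29.5, 34.2, 32.9 and 4.47 in that order, with Enpp2 the brightest. Fut7, a fucosyltransferase that modifies the glycoproteins of these venules, had a Week3 median of 1.79 and a median of -2.90 elsewhere. At Week15 Fut7 was at 1.04 on HFC, -3.51 on LFC, -2.51 on HF5, -3.84 on HF20 and -3.81 on HF75. Enpp2 is also made by adipocytes, and the sum of the list at Week15, 30.4 on HFC and 40.7 on HF20, did not set HFC apart. Markers of reticular and lymphatic stroma were low at Week3, with 5 of 6 above background on HFC, 2 on HF5, 6 on HF20 and 3 on HF75 and sums of 2.45, 1.70, 1.95 and 1.997, Il33 or Lyve1 being the brightest. Prox1 was not above background on HFC, HF5 and HF75. Fibroblast and macrophage genes, which the label of the tissue calls for, were all above background on these 4 arrays, with sums of 287, 73.7, 247 and 210 for the 7 fibroblast genes and of 17.7, 10.7, 12.4 and 12.5 for the 10 macrophage genes, in the same order.

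**Figure D2:**
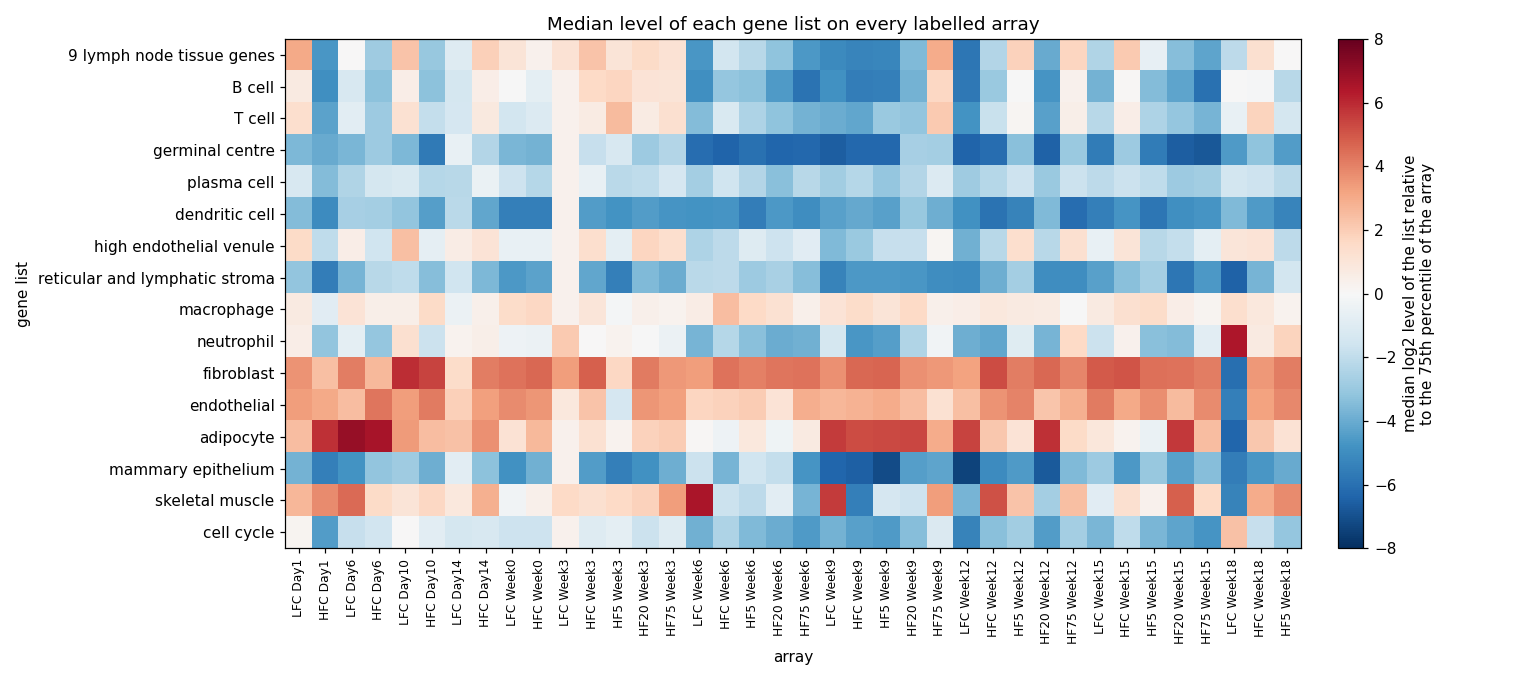
Median log2 level of each gene list, scaled to each array's 75th percentile (colour), for every labelled array (x axis, in order of time), with values not well above background raised to the lowest level that was. The 9 genes and the B and T cell lists are red on the 4 high-fat Week3 arrays, HF75 Week9 and LFC Day1. On HFC Week15 the 9 genes are red, while the B and T cell lists are nearly white. They part on LFC Week18, where the 9 genes had a median of -2.10 and all B cell genes were above background. The LFC Week3 column is limited to levels above 0.36.

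The rest of the pathway was described by lists of ligands, receptors and signalling genes. Of the 7 measured ligands and chemokines, the largest Week3 differences from the other arrays were those of Ccl21c (2.75), a T cell zone chemokine, Tnfsf11 (1.37), which encodes RANKL, and Tnfsf14 (1.03), which encodes LIGHT. Of 8 receptors they were those of Tnfrsf13c (5.15), the receptor for the B cell survival factor BAFF, Cxcr4 (3.10) and Il7r (2.90). Of the adhesion and homing genes, the integrins Itgb7 and Itgal had 2.46 and 1.98. The signalling genes downstream of the lymphotoxin beta receptor differed less, with Map3k14 at 0.76, Traf3 at 0.59 and Nfkb2 at 0.56, and the transcription factors Nkx2-3 and Id2 had -0.29 and 0.20. Of the partners of Cr2, the surface protein Cd81 and the complement component C3 had -0.39 and -0.13. The genes of the signalling chain differed by less than 1 log2 unit, and all these values include the Week3 arrays that picked the 9 genes.

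The diets were compared in 1 limma fit of diet and time point over 28 arrays, which left out Week3 and Week15, with Benjamini-Hochberg adjustment over 32444 probes. All 11 probes of the 9 genes passed the filter on dim probes. The first question was whether HFC differed from LFC. At Day1 the level of Glycam1 was -4.64 on HFC and 5.72 on LFC, that of Ltb -1.83 and 5.67, and that of Ccr7 -4.96 and 3.51. At Day10 Glycam1 was at -0.71 and 5.22 and Ltb at 1.20 and 5.67. From Week6 on the order was often the other way, with Ltb at 1.57 on HFC and -0.50 on LFC at Week6 and at 0.97 and -1.55 at Week12. In words, LFC was higher on Day1, Day6 and Day10 for most of the genes, and HFC was higher for most of them at Week6, Week12 and Week18.

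The median difference over the genes, HFC minus LFC, was -7.50 at Day1, -2.30 at Day6, -4.46 at Day10, 1.78 at Day14 (7 genes), -0.57 at Week0, 0.72 at Week6, -0.21 at Week9, 2.93 at Week12 and 0.96 at Week18. The Week6 median is that of Cr2, which was not well above background on LFC, so it is a bound. The pairs of Day6, Week0 and Week9 shared a slide, and the pair of Day1 was scanned on different days. Over all the pairs the limma estimates of the 11 probes had a median of -0.59, against 0.07 for all probes tested, and 1 of 11 was above 0. Without Day1 the median was -0.07, with 4 of 11 above 0. None of the 11 probes was called at an adjusted p under 0.05, where 0 of 32444 probes (0%) were called by limma, and 0 of 11 had an unadjusted p under 0.05, as 2073 probes (6.39%) had. For Glycam1 the difference was -1.35 (95% CI -5.30 to 2.60), and for Ccr7 it was 0.06 (-3.13 to 3.25). The intervals span differences of several log2 units in both directions.

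Because the direction turned over time, a test of that turn was added after the values were seen. It asked whether HFC minus LFC in the weeks differed from HFC minus LFC in the days. Day14 and Week0 stand for the same time but fall on either side of this split, and their pair medians, 1.78 and -0.57, run against the sides they are on. The difference was 9.87 for Glycam1 (95% CI 4.65 to 15.09), 6.86 for Cxcr5 (4.19 to 9.53), 4.44 for Ltb (0.85 to 8.03), 4.31 for Ccl19 (0.45 to 8.17) and 2.69 for Lta (0.65 to 4.73). Of 29600 probes 0 (0%) passed the adjusted threshold in limma, and the adjusted p was 0.74 for Glycam1 and for Cxcr5. At an unadjusted p under 0.05 there were 6 of the 11 probes and 1821 of all probes (6.15%). Cell type markers moved with this contrast. All 12 T cell genes had estimates above 0, with a median of 3.74 and 7 at an unadjusted p under 0.05 in limma, and all 10 B cell genes had, with a median of 3.34 and 4. So did the 7 fibroblast genes (2.43) and the 10 macrophage genes (1.15), with 0 at that threshold. At Day1 the summed intensity of the B cell genes was 49.0 on LFC with 10 of 10 above background and 0.532 on HFC with 9 of 10, and that of the T cell genes 45.1 with 12 of 12 and 0.603 with 11 of 12. No gene of these lists passed the adjusted threshold, and their part in the difference of the 9 genes was not tested. The contrast was chosen after the pattern of the 9 genes had been seen, and the Day1 pair lies on different scan days, so the turn of direction was not established by the test. Without the LFC Day14 array, on which the Glycam1 and Cxcr5 spots were dropped, the median over the 11 probes was 5.39 in place of 3.48, again with 0 of 29698 probes called in limma, and 9 of the 11 probes and 2778 of all probes were at an unadjusted p under 0.05.

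The next question was whether Kal-1 changed these genes on the high-fat diet. For HF75, the levels of Glycam1 outside Week3 and Week15 were 3.93 at Week9 and 4.08 at Week12, and at Week6 it was not well above background, while HFC had -6.03 at Week6 and -2.45 at Week12 and was not well above background at Week9. Ltb was at 0.72, 4.86 and 4.26 on HF75 and at 1.57, 0.07 and 0.97 on HFC. Cxcr5 was at -4.54, 3.00 and 1.69 on HF75 and at -1.14, -5.30 and -2.35 on HFC. HF75 was thus the higher diet at Week9 and Week12 and the lower one at Week6, and in the 5 diets of Week9 it was the only array on which these genes were bright.

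The limma estimate of HF75 minus HFC was 7.18 for Glycam1 (95% CI 1.32 to 13.03, adjusted p = 0.43), 4.66 for Cr2 (1.16 to 8.16, adjusted p = 0.38), 4.42 for Cxcr5 (0.25 to 8.60, adjusted p = 0.49), 3.73 for Lta (1.07 to 6.38, adjusted p = 0.37) and 3.30 for Ltb (0.14 to 6.46, adjusted p = 0.50). For Ccr7 it was 3.35, for Ccl19 2.61, for Cxcl13 1.06 and for Madcam1 0.34, all with intervals that include 0. The second Cr2 probe had estimates of 0.35 to 1.85 over the alternatives. None of the 11 probes was called, as was true of 0 of 32444 probes (0%) in limma. At an unadjusted p under 0.05 there were 5 of the 11 probes, against 3190 of all probes (9.83%), and the median over the 11 was 3.30, against 0.03 for all probes. The pairs behind the estimate had medians of -0.87 at Week6, 7.09 at Week9 and 3.28 at Week12. The Week6 median is that of Cr2, not well above background on HF75, and the Week9 median that of Lta, not well above background on HFC. Both are therefore bounds. At Week6 and Week9 the HF75 array was scanned on another day than the HFC array, and at Week9 the titles of the HFC array and the HF75 array also differ in the tissue code.

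The size of the difference depended on the fit. Without the time block the median of the 11 probes was 1.77 and the estimate of Glycam1 2.13, with 0 of 11 and 1552 of all probes at an unadjusted p under 0.05 in limma. The median was 2.28 in a fit of the 2 diets alone and 2.16 with normexp.

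Without Week9 the median of the 11 probes was 2.08, and 0 of 11 had an unadjusted p under 0.05, with 1331 of 33959 probes (3.92%). With the scan day in place of the time point as the block, which was chosen after seeing the data, the median was 3.38. The HF75 arrays of Week6 and Week9 are each alone on their scan day in this fit. That median and the counts that follow rest on the HF75 array of Week12 alone, so no conclusion is drawn from the counts. Then limma called 12 of 32444 probes (0.0370%), none of them among the 11, and 2 of the 11 had an unadjusted p under 0.05 against 1347 of all probes (4.15%). The difference for HF75 thus rested on 2 of 3 time points, and only the pair of Week12 lies within 1 scan day.

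Other lists moved beside the 9 genes in this comparison. All 10 B cell genes had estimates above 0 for HF75 minus HFC, with a median of 3.43 and a range of 2.12 to 4.22, and all 12 T cell genes had, with a median of 2.32. The summed intensity of the B cell genes was 48.1 on HF75 Week9 with 10 of 10 above background and 0.567 on HFC Week9, where Cd79a, Pax5 and Blk were not above background. At Week12 it was 40.4 on HF75 and 2.51 on HFC, where Pax5 and Blk were not. The T cell sum was 68.0 and 1.29 at Week9 and 21.8 and 4.38 at Week12. The 5 neutrophil genes had a median estimate of 2.96, the 10 macrophage genes -0.86, the 8 adipocyte genes -1.50 and the 7 fibroblast genes -0.72. No gene of these lists passed the adjusted threshold, and the part of B cells, T cells or the tissue code in the difference of the 9 genes was not tested.

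For HF5 the levels of Glycam1 were 3.80 at Week12 and 0.03 at Week18, and it was not well above background at Week6 and Week9. Ltb was at 0.38, 0.14, 4.23 and 2.48 at Week6, Week9, Week12 and Week18, where HFC had 1.57, 0.07, 0.97 and 4.82. HF5 was the higher at Week12 and the lower at Week6 and Week18. The median difference over the genes was -1.04 at Week6, 0.14 at Week9, 3.00 at Week12 and -1.86 at Week18, and the pairs of Week12 and Week18, which each shared a slide, went in opposite directions. In limma, 11 of 11 estimates were above 0 with a median of 1.04 (-0.01 for all probes), and without Week12 the median was 0.06. None of the 11 was called, where 0 of 32444 (0%) were, and 0 of 11 had an unadjusted p under 0.05, as 353 probes (1.09%) had. The median was -0.30 without the time block, with 4 of 11 above 0, and 0.26 in a fit of the 2 diets alone, with 7 of 11. Without Week12 the estimates of Glycam1 and Ccl19 stayed above 0, at 1.51 and 1.58, and those of Cr2, Ltb, Cxcr5 and Ccr7 were below 0.

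For HF20 most of the genes were low at all 3 time points, with Ltb at 0.29, 0.30 and 0.20 at Week6, Week9 and Week12 and Ccr7 at -2.95, -3.56 and -5.55. Glycam1 was well above background at Week9 alone (-3.76). The median difference from HFC was -1.28 at Week6, 1.18 at Week9 and -1.69 at Week12. In limma the median estimate was 0.29 (0.11 for all probes) with 7 of 11 above 0, and its sign was not stable. It was -0.58 with normexp, -0.95 without the time block, -0.64 in a fit of the 2 diets alone and -0.35 without Week9. None of the 11 was called, where 0 of 32444 (0%) were, and 0 of 11 had an unadjusted p under 0.05, as 983 probes (3.03%) had. For Glycam1 the interval ran from -5.12 to 6.59 around 0.73, so these arrays did not exclude a large difference in either direction. The 3 Kal-1 comparisons share the HFC arrays, and differences between the doses were not tested.

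**Figure D3:**
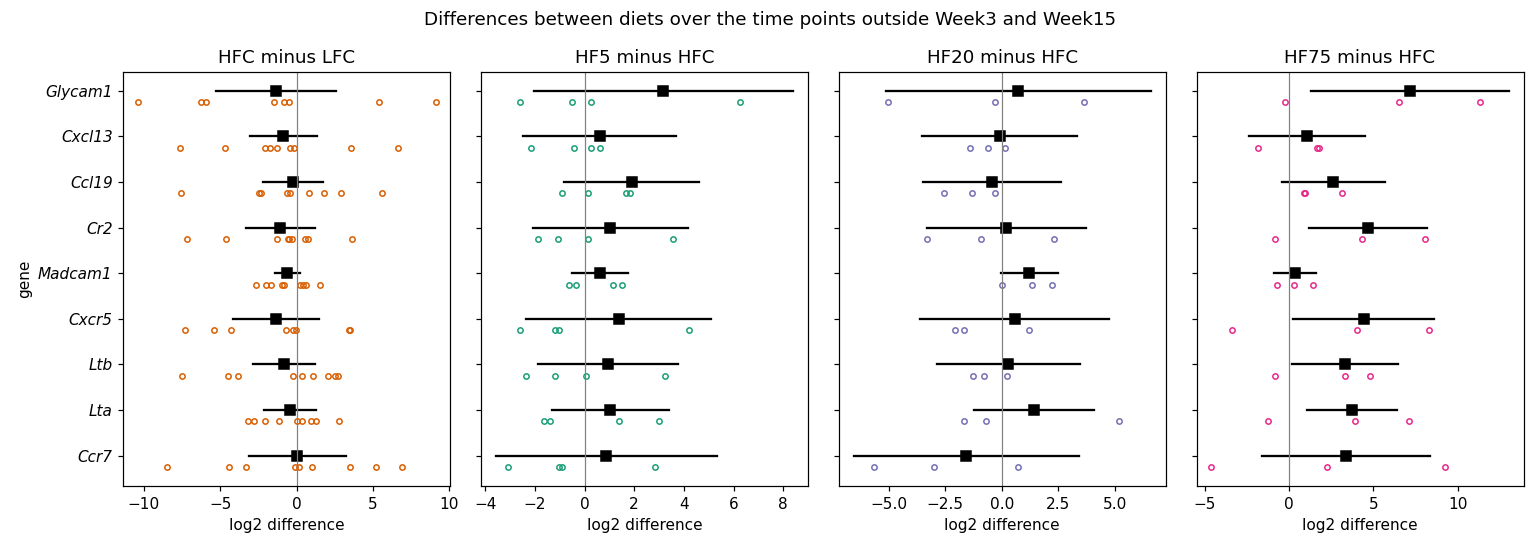
Log2 difference between diets (x axis) for each gene (y axis) over the time points outside Week3 and Week15, with the limma estimate as a square, its 95% confidence interval as a line and the single pairs of arrays as open circles, in which a value not well above background stands at its bound. For HF75 minus HFC the estimates of Glycam1 (7.18), Cr2 (4.66), Cxcr5 (4.42), Lta (3.73) and Ltb (3.30) have intervals above 0, and none passed the adjusted threshold.

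Since 6 of the 9 genes moved together, promoters of the set were read for a shared motif of NF-κB, the factor through which lymphotoxin acts. RefSeq promoters of build GRCm38.p6, from 250 bases before to 50 after the start, matched 7 of the 9 genes, without Ccr7 and Cxcr5. The κB motif of 10 letters was searched on both strands and occurred in 1480 of 32851 promoters (4.51%). It occurred in those of Madcam1 and Ltb and not in those of Glycam1, Cxcl13, Ccl19, Cr2 and Lta. The Madcam1 promoter had 2 matches, starting 83 and 70 bases before the start, and the Ltb promoter had 1, starting 87 bases before it, all on the opposite strand and without overlap. The stretches of 60 bases that hold them are shown because Ltb is 1 of those 6 genes and Madcam1 is not. They lie at chr10:79664449-79664508 and chr17:35194397-35194456, on the + strand, and capitals mark the matches.
Madcam1: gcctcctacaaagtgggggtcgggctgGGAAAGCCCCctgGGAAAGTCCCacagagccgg
Ltb: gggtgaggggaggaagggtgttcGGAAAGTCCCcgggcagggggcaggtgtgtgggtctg
A match describes letters and not a site in use. Lta lies close to Ltb on chromosome 17, with promoters at chr17:35205302-35205601 and chr17:35194257-35194556, and its own window holds no match.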

How the data were processed

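RNA of 40 samples was read on 1-colour Agilent 44K arrays. The authors deposited spot intensities, which per the file headers came from Feature Extraction 10.5.1.1 (their notes name Agilent Feature Extraction 9.1), with background subtracted and no normalization between arrays. Of the authors' fold change table only the gene symbols were used, and its 40 columns of log2 fold changes were not. Control and outlier spots were dropped, a probe's spots were averaged, and each array was scaled to its 75th percentile. Dim values below the lowest level that counted as well above background were then raised to that level. A gene stands for its brightest probe by mean level. No spot of the 9 genes was saturated. limma 3.58.1 (R 4.3.3), tried on simulated data, was fitted with diet and time point on 28 arrays, after removal of probes dim on more than 50% of the arrays of every diet. p-values measure the spread between arrays, which may be technical. The median spot was 1.52 to 55.4 times its background (median 4.86). Python 3.11.15, pandas 2.3.3, NumPy 2.4.6 and matplotlib 3.10.9 were used. Named genes are the 9 members, the 3 of each list with the largest Week3 difference and the 10 most similar genes, and some genes that this rule picks are not shown. Markers are also named as the brightest of a list or as not above background, and Bcl6 and S1pr2 as the germinal centre genes that differed least. The members and the lists were chosen with earlier results of these data known. Alternatives were quantile normalization, normexp with an offset of 50, the mean of all probes of a gene, no raising, no filter, other sets of arrays and other blocks.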

Additional observations from a re-analysis of the deposited data

Results flagged for a closer look

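Of the 40 arrays, 2 carry Week18 labels that conflict on the dose of Kal-1, so they entered no comparison. Their levels are given here because several lay above those of the LFC array of Week18, the control at that time, which itself stood apart. On the first of them, which had 21710 outlier spots, Glycam1 was at 2.17, Cxcl13 at -1.21, Ccl19 at 0.17 and Ccr7 at 0.69. On LFC Week18 Glycam1 and Cxcl13 were not well above background, Ccl19 was at -4.04 and Ccr7 at 0.01. On the first array the spots of Cr2, Madcam1, Cxcr5 and Lta were dropped. On the second, Cxcl13 was at 1.29, Ccl19 at 3.22 and Madcam1 at -3.77. Glycam1 and the first Cr2 probe were not well above background there, and the second Cr2 probe was at -4.97. Cxcr5 was at -3.13 on the second array, below the 1.31 of LFC Week18. The chemokine genes were thus bright on it without Glycam1. Among the 4 HF5 arrays outside Week3 and Week15, none of the 9 genes had an array set apart from the rest beyond what is usual in a group of 4.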

How the results depend on the processing

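The number of probes called stayed at 0 in limma for HFC minus LFC, HF5 minus HFC and HF20 minus HFC under all alternatives run, and none of the 11 probes was called for any comparison. With the scan day as the block, HF75 minus HFC rests on the HF75 array of Week12 alone, and no conclusion is drawn from its counts. The fit over all time points holds the arrays that picked the genes and is not counted as support. For HF75 minus HFC, 1 probe was called without Week12 and 12 with the scan day as the block (11 higher and 1 lower), a block chosen after seeing the data, and the cause was not tested. At an unadjusted p under 0.05, HF75 minus HFC had 2078 and 1347 probes in these fits. Estimates below the threshold changed sign without a call in 29 of 242 values for HFC minus LFC, 24 of 231 for HF5, 38 of 220 for HF20 and 3 of 220 for HF75, the 3 all for Madcam1, that fit left out. For Glycam1 in HF75 minus HFC they ranged from 2.13 to 10.54 (adjusted p from 0.26 to 1.0), and without single time points from 4.85 to 10.54. The alternatives added after seeing the data include the day arrays alone, with a median of -2.70 over the 11 probes for HFC minus LFC and 6 of 11 at an unadjusted p under 0.05 (948 of 34768 probes), and the week arrays alone, with 1.17 and 0 of 11 (2597 of 32282). With the slide as a random block (correlation 0.62) the medians were -0.58, 0.59, 0.84 and 3.34 for the 4 comparisons. The Week3 difference of 4.06 lay between 2.91 and 4.13 and the Week15 difference of 3.92 between 3.27 and 4.06, the lowest in both with normexp. The time point pairs the diets in the fit, and no pairing by animal was possible. Levels close to background, as of Madcam1 and at Week6 of Glycam1 and Cr2, are the least certain.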

Other observations

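Genes of other immune cells gave levels not described above. Of the germinal centre genes, Rgs13 had a median of -1.61 on the 4 high-fat Week3 arrays and of -5.61 elsewhere, while Mybl1 was well above background on 3 of 38 arrays. Of the lymphocyte precursor genes, Vpreb3 had 1.34 and -3.21, Dntt -1.51 and -3.34 and Vpreb1 -1.99 and -2.85. Of the plasma cell genes, Irf4 had -1.09 and -2.82, Igj 3.87 and 2.36 and Prdm1 -3.06 and -2.61. Rag1, Rag2 and Ptcra were not above background on any of the 4 Week3 arrays, and Bcl6 and S1pr2 differed by 0.34 and -0.03, so the genes of a list did not move as 1 group. Of the dendritic cell genes, Ccl22 had -5.26 and -6.50, Itgax -0.45 and -1.46 and Xcr1 -5.77 and -4.86. In HF75 minus HFC the germinal centre genes had a median estimate of 1.62 with 3 of 4 above 0, the precursor genes 2.02 with 4 of 4, the plasma cell genes 0.25 with 5 of 5 and the dendritic cell genes 0.29 with 3 of 5.

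The remaining lists had, for HF75 minus HFC, medians of -0.48 for the 6 endothelial genes, 1.40 for 7 tested mammary epithelial genes, -0.46 for 5 skeletal muscle genes, -0.57 for 3 erythroid genes, 1.26 for 4 cell cycle genes, -0.30 for 5 high endothelial venule genes and -0.36 for 6 genes of reticular and lymphatic stroma. The pathway lists had medians of 0.28 for ligands and chemokines, 1.41 for receptors, 0.56 for signalling genes and 1.05 for adhesion and homing. None of their genes passed the adjusted threshold in limma. The median over all probes was 0.03.

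On LFC Week18, where the lists of fibroblast, endothelial and adipocyte genes were near background, Ltb was at 5.03, Cxcr5 at 1.31, Cr2 at 0.09, Ccr7 at 0.01 and Lta at -2.10, and Cxcl13, Glycam1 and Madcam1 were not well above background. Ltb, Cxcr5 and Cr2 were therefore bright, and Lta and Ccr7 below their levels of Week3, on an array where most fibroblast and adipocyte genes were not above background, although all 5 high endothelial venule genes were. The neutrophil sum was 436 there, with Camp the brightest, and the B cell sum was 39.5 with 10 of 10 above background.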
